A study of Mus musculus with 18 samples.

Results

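Th, Slc6a3, Nr4a2, Drd2, Aldh1a1, En1, Pitx3 and Ret are genes by which midbrain dopamine neurons are recognised. On the arrays of this study, all probe sets whose annotation gave 1 of these symbols and no other were taken, which made 9 probe sets of 8 genes, among 22626 probe sets of which those with a single symbol covered 12393 genes. Nr4a2 had 2 probe sets and each other gene had 1. Their signals were followed in oculomotor nucleus (OMN) and cervical spinal cord of mice, in 6 groups: 6 week mutant OMN, 10 week mutant OMN, 10 week control OMN, 6 week mutant spinal cord, 10 week mutant spinal cord and 10 week control spinal cord. Mutants belonged to a mouse model of amyotrophic lateral sclerosis (ALS), a disease in which spinal motor neurons die and eye movements are largely spared. The labels name neither the mutation nor the strain, use the same model description on control arrays, and do not say whether animals were pooled. No 6 week control group was among the samples.

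Each group had 3 arrays of biotin-labelled RNA. The first replicate of control spinal cord (replicate 1) is not part of the comparisons, since its values correlated with those of the other arrays at 0.0104 to 0.0143 across probe sets, whereas the 17 arrays used correlated with each other at 0.957 to 0.985. This left 9 OMN and 8 spinal cord arrays, with median signals between 207.1 and 226.0. Signals are the authors' scaled intensities on a linear scale, and the number of arrays limits their precision. Differences are given as log2(signal + 25) with the standard error (SE), from 1 limma fit of the 6 group means over 13575 probe sets. A difference is called where its p-value, adjusted by the Benjamini-Hochberg method within that comparison, is under 0.05. The labels do not tie arrays to separate animals, and the p-values therefore measure the spread between these samples, which may be technical. Fewer cells of a type and less RNA per cell cannot be told apart in such bulk tissue.

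Dopamine is made from tyrosine in a pair of steps, hydroxylation by tyrosine hydroxylase (Th) and decarboxylation by Ddc. The dopamine transporter Slc6a3 returns released dopamine to the neuron, and Drd2 is a receptor that neurons of this class also carry as an autoreceptor. Nr4a2, En1 and Pitx3 are transcription factors needed for the formation or the upkeep of midbrain dopamine neurons. Aldh1a1 oxidises aldehydes, including retinaldehyde and a breakdown product of dopamine, and Ret is the receptor tyrosine kinase through which GDNF-family ligands signal. Midbrain dopamine neurons lie in the ventral midbrain, the brain division that also holds the oculomotor nucleus.

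The start regions of Th, Slc6a3, Nr4a2 and En1 are shown because these genes had all 9 OMN arrays above all 8 spinal cord arrays on at least 1 probe set, which for Nr4a2 was 1450750_a_at and not 1450749_a_at. Each sequence holds 250 bases before and 50 bases after the RefSeq start on assembly GRCm38.p6, in the direction of transcription. They lie at chr7:142899946-142900245 on the minus strand for Th, chr13:73536497-73536796 on the plus strand for Slc6a3, chr2:57123954-57124253 on the minus strand for Nr4a2 and chr1:120602237-120602536 on the plus strand for En1. Capitals mark the motif matches found.
Th: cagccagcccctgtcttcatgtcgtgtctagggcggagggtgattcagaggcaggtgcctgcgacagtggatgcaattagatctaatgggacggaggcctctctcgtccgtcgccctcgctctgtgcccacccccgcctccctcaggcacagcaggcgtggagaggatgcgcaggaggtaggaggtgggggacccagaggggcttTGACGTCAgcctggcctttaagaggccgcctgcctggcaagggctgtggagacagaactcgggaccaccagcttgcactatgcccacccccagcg
Slc6a3: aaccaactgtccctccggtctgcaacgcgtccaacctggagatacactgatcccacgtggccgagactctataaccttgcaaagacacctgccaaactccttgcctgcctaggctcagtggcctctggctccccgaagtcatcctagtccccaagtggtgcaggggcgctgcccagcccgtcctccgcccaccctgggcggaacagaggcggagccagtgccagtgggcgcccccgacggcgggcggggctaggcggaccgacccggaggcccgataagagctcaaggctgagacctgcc
Nr4a2: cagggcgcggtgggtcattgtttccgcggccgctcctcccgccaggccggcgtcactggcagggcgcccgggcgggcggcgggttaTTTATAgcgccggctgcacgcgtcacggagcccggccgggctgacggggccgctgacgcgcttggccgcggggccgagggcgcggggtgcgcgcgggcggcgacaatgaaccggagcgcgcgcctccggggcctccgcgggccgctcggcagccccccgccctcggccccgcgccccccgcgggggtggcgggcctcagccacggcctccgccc
En1: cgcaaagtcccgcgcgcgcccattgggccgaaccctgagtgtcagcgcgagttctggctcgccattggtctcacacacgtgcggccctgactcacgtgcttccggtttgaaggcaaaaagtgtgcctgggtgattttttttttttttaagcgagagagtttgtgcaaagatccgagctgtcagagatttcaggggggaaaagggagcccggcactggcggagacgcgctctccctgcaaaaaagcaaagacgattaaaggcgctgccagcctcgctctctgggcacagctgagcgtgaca
The 8 promoters of the 7 genes with an entry (all but Ret) were searched on both strands for AAAGGTCA, which is the element that Nr4a2 and its relatives bind (NBRE), for TAATCC and TAATTA, which homeodomain proteins bind, for the TATA box TATAAA and for the cyclic AMP response element TGACGTCA (CRE). The last motif was added after the sequences were seen. The CRE in Th, in capitals above, has its first base 45 bases before the start, and 1.79% of 32851 mouse promoters of this length hold one. The capitals in Nr4a2 are a TATA box on the opposite strand, 164 bases before the start, of a kind that 13.6% of promoters hold. AAAGGTCA was in none of the 8 promoters and in 1.51% of all, TAATCC was in none and in 7.06% of all, and TAATTA was in none and in 5.29% of all. The share of G and C was 64.3% in the Th promoter, 66% in Slc6a3, 81.7% in Nr4a2 and 57% in En1, against a median of 52.7% over all promoters.

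The regional comparison asked how the relatively spared motor region differs from the affected one. Of the 8 genes, Th, Slc6a3 and Nr4a2 were higher in OMN than in spinal cord in every condition and Drd2 was higher over the conditions together, whereas no regional difference was called for Aldh1a1 or Ret. En1 and Pitx3 lay below the filter on low signals and are described from a fit without it. Of the 9 probe sets, 6 passed that filter, which keeps probe sets by their mean over all arrays. Slc6a3 and probe set 1450750_a_at of Nr4a2 had spinal cord means under its limit of 7.38 in every condition and passed it through their OMN signals alone, so the following counts over the 6 are a description and support nothing. Called higher in OMN were 4 of these 6 in 6 week mutants (12.2% of all tested probe sets), 3 in 10 week mutants (9.3%) and 4 in 10 week controls (6.62%). In the mean over the 3 conditions 4 of 6 were called higher (20%) and none lower (17.7%). Over all 9 probe sets, in a fit without the filter, 6 were called higher in 6 week mutants (7.51% of all 22626 probe sets), 4 in 10 week mutants (5.47%), 6 in 10 week controls (3.72%) and 7 in the mean (13.1%).

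**Figure D1:**
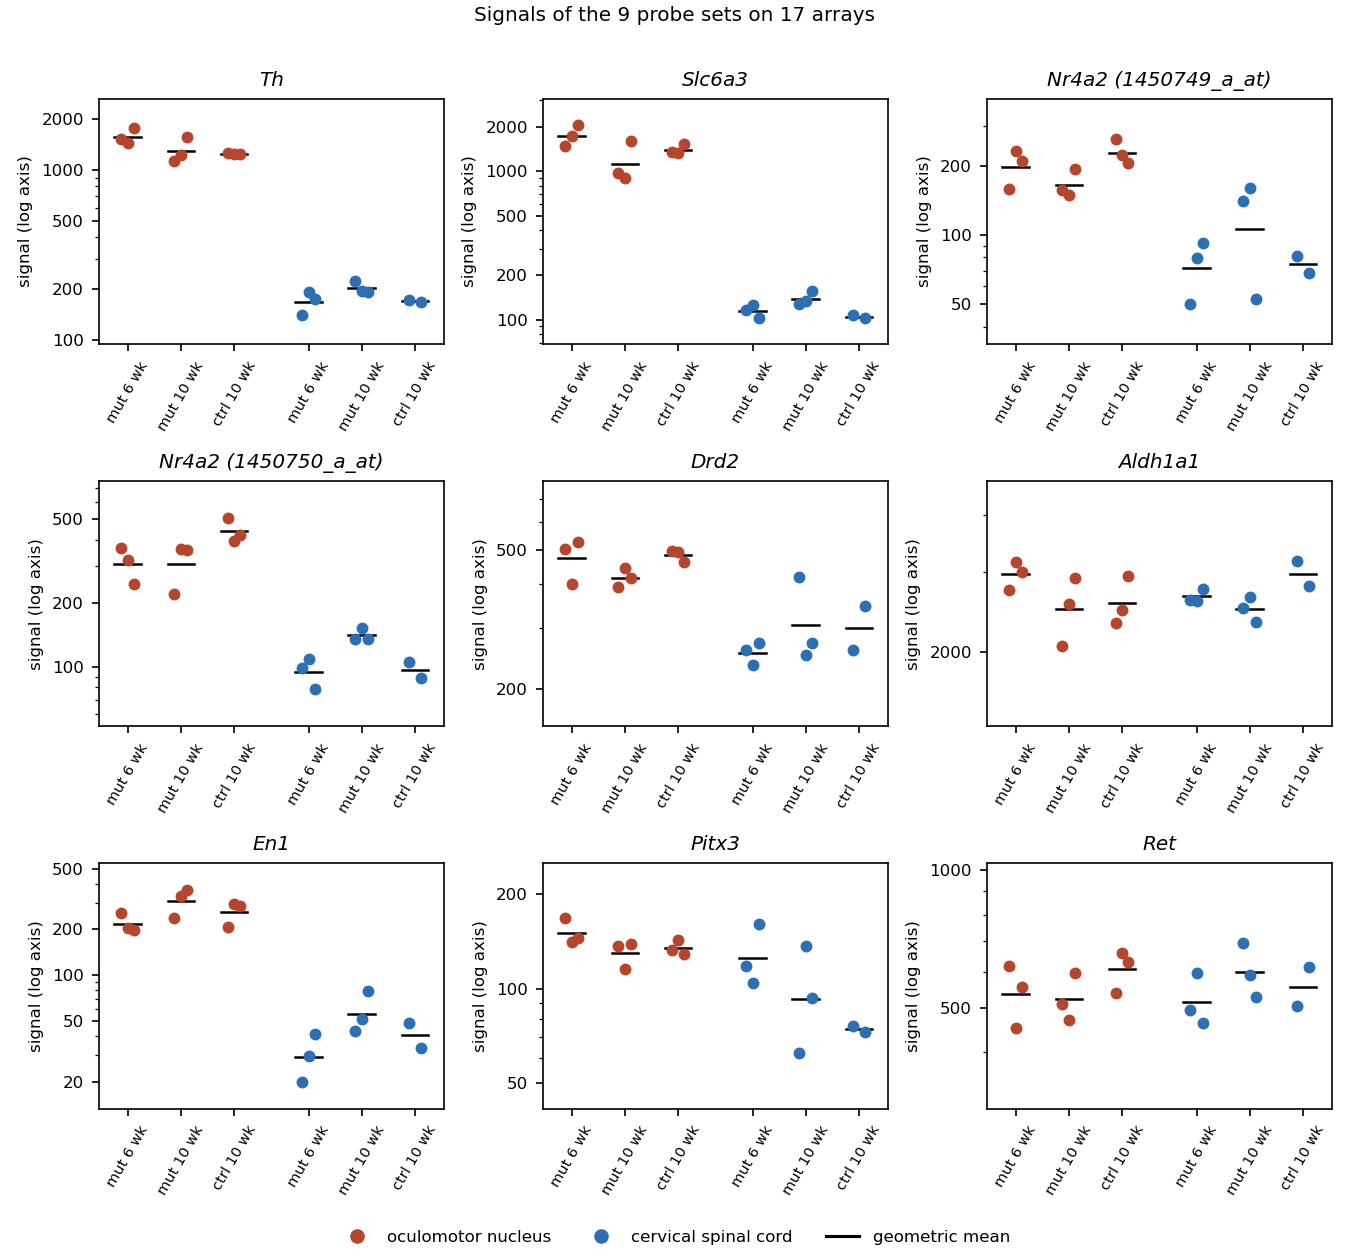
Signal of each of the 9 probe sets (log axis) on every array used, with oculomotor nucleus arrays in red and spinal cord arrays in blue; black bars are geometric means of a group of 3 arrays, or 2 for control spinal cord. The red points lie wholly above the blue points for Th, Slc6a3, Nr4a2 (1450750_a_at) and En1, and the colours overlap for Drd2, Aldh1a1, Pitx3, Ret and Nr4a2 (1450749_a_at).

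Th encodes the rate-limiting enzyme of dopamine and noradrenaline synthesis. Its signals (probe set 1420546_at) were 1513.9, 1432.3 and 1756.2 in 6 week mutant OMN, 1126.1, 1220.0 and 1555.3 in 10 week mutant OMN and 1256.1, 1242.7 and 1246.6 in 10 week control OMN. In spinal cord Th had 140.5, 190.0 and 174.6 in 6 week mutants, 221.7, 193.4 and 191.5 in 10 week mutants and 170.8 and 166.4 in 10 week controls. The lowest OMN array thus stood far above the highest spinal cord array, and within OMN the 3 control arrays lay closest together. The log2 difference of Th was 3.05 ± 0.13 (SE) in 6 week mutants (adjusted p = 1.55e-11), 2.53 ± 0.13 in 10 week mutants (adjusted p = 1.16e-10) and 2.72 ± 0.14 in 10 week controls (adjusted p = 3.37e-10). Over the conditions Th was 6.8-fold higher in OMN, with a log2 difference of 2.77 ± 0.08 (adjusted p = 4.48e-15).

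Slc6a3, the plasma membrane dopamine transporter, had the largest regional difference of the 9 probe sets in each condition. Its signals (1417415_at) were 1468.5, 1729.1 and 2058.4 in 6 week mutant OMN, 969.1, 897.5 and 1608.3 in 10 week mutant OMN and 1339.1, 1336.1 and 1519.9 in 10 week control OMN. In spinal cord Slc6a3 had 115.8, 124.8 and 103.0 in 6 week mutants, 127.7, 133.3 and 156.8 in 10 week mutants and 107.5 and 102.2 in 10 week controls. The regions did not overlap, while within 10 week mutant OMN 1 array stood well above the other 2. The log2 difference of Slc6a3 was 3.66 ± 0.17 in 6 week mutants (adjusted p = 3.61e-11), 2.80 ± 0.17 in 10 week mutants (adjusted p = 1.57e-09) and 3.45 ± 0.19 in 10 week controls (adjusted p = 6.47e-10). Since Slc6a3 passed the filter through its OMN signals alone, the adjusted p-values without the filter are given too. They were 1.09e-09, 2.9e-08 and 1.68e-08 in the same order. The mean of Slc6a3, 3.31 ± 0.10, corresponds to 9.89-fold on the scale with the offset (adjusted p = 1.84e-14, and 1.65e-12 without the filter). That scale understates the change of a gene with low spinal cord signals.

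Nr4a2, an orphan nuclear receptor on which expression of Th and Slc6a3 in midbrain neurons depends, had 1 probe set above the filter on low signals and 1 below it. The tested one (1450750_a_at) gave 365.0, 319.4 and 246.9 in 6 week mutant OMN, 221.2, 360.7 and 356.7 in 10 week mutant OMN and 506.5, 394.8 and 420.7 in 10 week control OMN. In spinal cord 1450750_a_at gave 99.1, 108.8 and 78.4 in 6 week mutants, 135.3, 152.5 and 135.5 in 10 week mutants and 105.9 and 88.3 in 10 week controls. The regions did not overlap on this probe set, and the control OMN arrays were the 3 highest. The log2 difference of Nr4a2 was 1.47 ± 0.18 in 6 week mutants (adjusted p = 1.02e-05), 1.00 ± 0.18 in 10 week mutants (adjusted p = 0.000641) and 1.93 ± 0.20 in 10 week controls (adjusted p = 2.41e-06). This probe set passed the filter through its OMN signals alone. In the fit without the filter it was called higher in each condition as well. The signals of the Nr4a2 probe set under the filter (1450749_a_at) ran from 149.0 to 262.3 in OMN and from 50.2 to 160.4 in spinal cord. In the fit without the filter its mean difference was 1.02 ± 0.16 (adjusted p = 0.000184), but in 10 week mutants it was 0.51 (adjusted p = 0.257) and the regions overlapped. There, 2 of the 3 spinal cord arrays gave 141.5 and 160.4 and the other gave 52.5.

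En1, a homeodomain factor of the embryonic midbrain that adult dopamine neurons keep expressing, separated the regions as fully as Th did. Its signals (1418618_at) were 257.2, 203.5 and 199.5 in 6 week mutant OMN, 236.7, 332.0 and 364.9 in 10 week mutant OMN and 208.6, 293.2 and 283.2 in 10 week control OMN. In spinal cord En1 had 20, 29.6 and 41.0 in 6 week mutants, 43.2, 51.5 and 78.5 in 10 week mutants and 48.6 and 33.5 in 10 week controls. Every OMN array was above every spinal cord array, and the spinal cord values lay near the added offset of 25. En1 was under the filter because of those low spinal cord signals. Without the filter, its log2 difference was 2.16 ± 0.22 in 6 week mutants (adjusted p = 5.22e-06), 2.03 ± 0.22 in 10 week mutants (adjusted p = 1.11e-05) and 2.11 ± 0.24 in 10 week controls (adjusted p = 3.27e-05). The size of the En1 difference depends on the offset, and with an offset of 100 its mean over the conditions was 1.34, against 2.10 with 25.

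Pitx3 is a homeodomain factor that in the brain is largely restricted to midbrain dopamine neurons. Its signals (1449917_at) were 168.0, 140.8 and 145.5 in 6 week mutant OMN, 136.4, 115.5 and 138.7 in 10 week mutant OMN and 133.1, 143.3 and 128.9 in 10 week control OMN. In spinal cord Pitx3 had 117.7, 104.6 and 160.9 in 6 week mutants, 62.2, 136.8 and 93.2 in 10 week mutants and 75.9 and 72.8 in 10 week controls. The regions overlapped in mutants of both ages and were apart in controls. Without the filter its mean log2 difference was 0.43 ± 0.12 (adjusted p = 0.0149, a call that 13.1% of probe sets reached in this direction), while no single condition reached a call, with adjusted p-values of 0.524 in 6 week mutants, 0.25 in 10 week mutants and 0.0788 in 10 week controls. Of all 22626 probe sets, 2.58% had every OMN array above every spinal cord array, and of the 9 probe sets these were those of Th, Slc6a3 and En1 and 1450750_a_at of Nr4a2.

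Drd2 differed less than the enzyme and the transporter. Its signals (1418950_at) were 503.4, 400.2 and 525.3 in 6 week mutant OMN, 391.8, 443.4 and 414.5 in 10 week mutant OMN and 497.3, 493.2 and 462.4 in 10 week control OMN. In spinal cord Drd2 had 258.8, 235.0 and 270.6 in 6 week mutants, 418.3, 249.9 and 270.3 in 10 week mutants and 258.8 and 346.9 in 10 week controls. The regions overlapped through 1 array, 10 week mutant spinal cord replicate 1 with 418.3. The log2 difference of Drd2 was 0.83 ± 0.16 in 6 week mutants (adjusted p = 0.000811), 0.42 ± 0.16 in 10 week mutants (adjusted p = 0.072, not called) and 0.65 ± 0.18 in 10 week controls (adjusted p = 0.0188). Without that array the 10 week mutant difference was 0.63 (adjusted p = 0.00515). In controls, the call was lost without control spinal cord replicate 2 (0.45, adjusted p = 0.279), without control OMN replicate 1 (adjusted p = 0.0542) and without control OMN replicate 2 (adjusted p = 0.0538). The mean of Drd2 over the conditions was 0.63 ± 0.10 (adjusted p = 3.28e-05).

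Aldh1a1 and Ret did not separate the regions. Aldh1a1, which in the midbrain is enriched in a ventral subset of dopamine neurons but is also present in other cells, had signals (1416468_at) between 2059.4 and 3154.1 with a median of 2741.8 on the OMN arrays. On spinal cord arrays Aldh1a1 ran from 2323.1 to 3167.4 with a median of 2623. Its mean log2 difference was -0.02 with a 95% interval of -0.16 to 0.13 (adjusted p = 0.866). Ret, which spinal motor neurons also use as a receptor for GDNF, had signals (1421359_at) from 451.5 to 658.0 with a median of 555.5 in OMN and from 464.4 to 692.2 with a median of 559.7 in spinal cord. The mean log2 difference of Ret was -0.01 with an interval of -0.18 to 0.17 (adjusted p = 0.971). Both genes overlapped between regions in all 3 conditions.

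**Figure D2:**
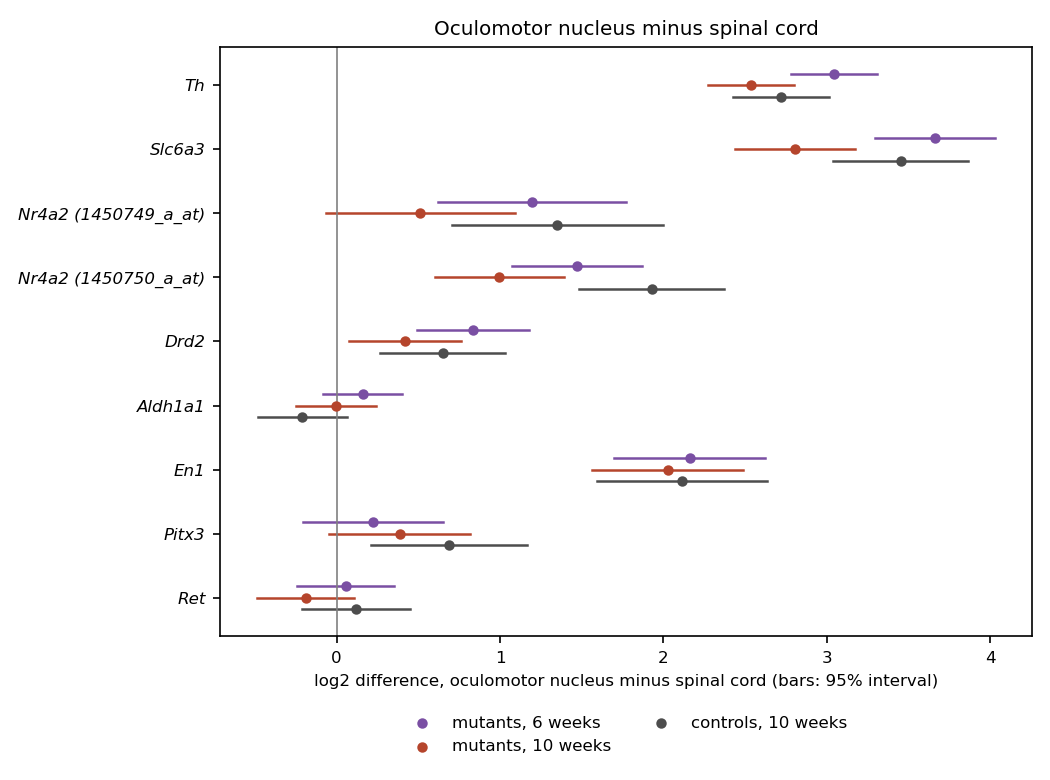
Log2 difference, oculomotor nucleus minus spinal cord, for each probe set in 6 week mutants, 10 week mutants and 10 week controls, from the fit without the filter; points are estimates and bars are 95% intervals. Slc6a3 and Th lie farthest to the right, En1 lies near 2 in all 3 conditions, and Aldh1a1 and Ret straddle 0.

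Markers of other cells were called between the regions as well, where 20% of all tested probe sets were called higher in OMN and 17.7% lower. Of 6 measured motor neuron genes 4 passed the filter and all 4 were called lower in OMN in the mean over the conditions, including the vesicular acetylcholine transporter Slc18a3 (log2 difference -1.85 ± 0.08, adjusted p = 8.54e-13) and the intermediate filament peripherin, Prph (-2.66 ± 0.12, adjusted p = 3.74e-12). By condition, Isl2 of this list was called lower in 10 week mutants alone (-0.75, adjusted p = 0.00166). It differed by 0.12 in 6 week mutants and by -0.19 in 10 week controls (adjusted p = 0.595 and 0.52). Summed over the list, motor neuron signals were 801.1 to 943.1 in OMN and 2164.2 to 2947.7 in spinal cord. Phox2a, a factor that specifies oculomotor motor neurons and is named here after its values were seen, had 54.2 ± 12.3 in OMN (SD, n = 9) and 52.1 ± 15.5 in spinal cord (SD, n = 8). Its probe set lay under the filter on low signals. Whether this marker sets the labelled nucleus apart therefore cannot be read from it. The serotonin transporter Slc6a4 had 1474 ± 629 in OMN (SD, n = 9) and 9.76 ± 4.70 in spinal cord (SD, n = 8), and all 3 tested serotonergic genes were called higher in OMN. Pan-neuronal genes summed to between 25271.7 and 28283.7 in OMN and between 21443.3 and 27108 in spinal cord, with 1 of 6 called higher and 1 lower. All 6 genes of meninges and fibroblasts were called lower in OMN, with a list median of -1.92 against 0.02 over all tested probe sets. Among them were the collagen Col1a1 (-2.27, adjusted p = 4.56e-09) and osteoglycin, Ogn (-2.12, adjusted p = 8.56e-12), named after their values were seen, as are the glial genes that follow. Of 6 astrocyte genes 3 were called lower, including the intermediate filament Gfap (-2.21, adjusted p = 9.39e-11) and the water channel Aqp4 (-0.88, adjusted p = 2.82e-09), and 1 higher, the glutamate transporter Slc1a3 (0.76, adjusted p = 2.04e-05). All 5 tested oligodendrocyte genes were called lower in the mean over the conditions (list median -0.32), as were 4 of 5 tested microglial genes (list median -0.68), and none of 5 endothelial genes was called. In 6 week mutants, however, Mbp (0.25), Mobp (0.23) and Cnp (0.10) were higher in OMN without a call, while Mog (-0.61) and Mag (-0.26) were called lower. The part of cell composition in the dopamine gene differences was not tested.

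The genotype comparison at 10 weeks asked whether these genes differ between mutants and controls in each region. None of the 6 tested probe sets was called in OMN, where 1.47% of all tested probe sets were called, and none in spinal cord, where 0.0221% were called. In limma at an unadjusted p under 0.05, 1 of the 6 stood in OMN (2024 of all 13575) and 1 in spinal cord (1595 of all). Both were probe set 1450750_a_at of Nr4a2. In OMN, the mutant signals of Nr4a2 of 221.2, 360.7 and 356.7 were all below the control signals of 506.5, 394.8 and 420.7, a log2 difference of -0.49 ± 0.18 (adjusted p = 0.19). In spinal cord the mutant signals of 135.3, 152.5 and 135.5 were all above the control signals of 105.9 and 88.3, a log2 difference of 0.45 ± 0.20 (adjusted p = 0.398). The other Nr4a2 probe set, 1450749_a_at, differed by -0.42 in OMN, again with every mutant array below every control array, and by 0.42 in spinal cord, where the arrays overlapped.

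For Th the genotype difference in OMN was 0.04 with a 95% interval of -0.22 to 0.31, and for Slc6a3 it was -0.31 with an interval of -0.67 to 0.04 (adjusted p = 0.411). Without 10 week mutant OMN replicate 3 the Slc6a3 value was -0.57 and without replicate 2 it was -0.16, neither called. In spinal cord the mutant arrays of Th and of Slc6a3 were all above the control arrays, by 0.23 ± 0.14 and 0.34 ± 0.19 on the log2 scale, and neither was called (adjusted p = 0.541 for Th and 0.504 for Slc6a3). Drd2 in OMN was lower on every mutant array than on every control array, with a log2 difference of -0.21 ± 0.16 (adjusted p = 0.589). Aldh1a1 in spinal cord likewise had every mutant array below both control arrays, by -0.25 ± 0.13 (adjusted p = 0.448). The genotype difference of Ret was -0.21 in OMN (adjusted p = 0.537) and 0.10 in spinal cord (adjusted p = 0.85). Arrays of mutants lay wholly below those of controls in OMN for 3 of the 9 probe sets and for 9.44% of all 22626. In spinal cord, with 2 control arrays, they lay wholly above for 3 of the 9 (17.9% of all) and wholly below for 1 (10.4% of all).

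The difference between the genotype effects of the regions was itself tested. For Nr4a2 it was -0.93 ± 0.27 (adjusted p = 0.668 in limma) and for Slc6a3 -0.65 ± 0.26 (adjusted p = 0.747). In this comparison 0% of the tested probe sets were called, while 835 of all and 2 of the 6 had an unadjusted p under 0.05. The 95% interval of the Nr4a2 value ran from -1.50 to -0.36. Th gave -0.18 ± 0.19 (adjusted p = 0.884).

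**Figure D3:**
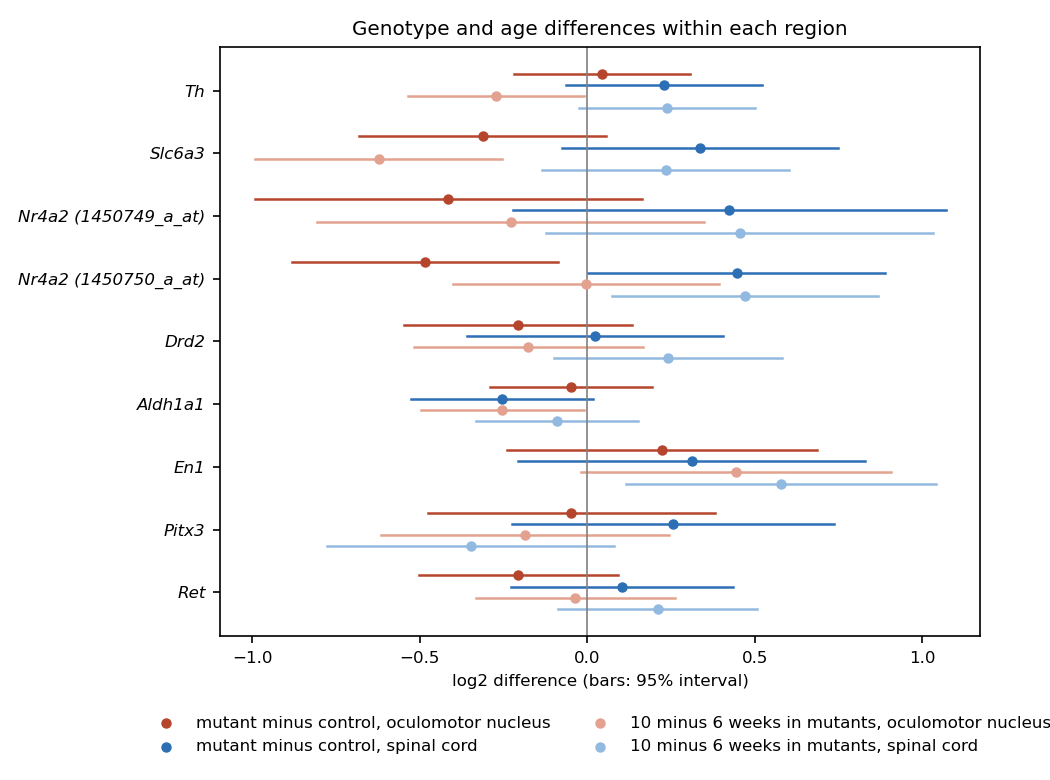
Log2 differences of each probe set between mutants and controls at 10 weeks (dark colours) and between 10 and 6 weeks in mutants (light colours), in oculomotor nucleus (red) and spinal cord (blue), from the fit without the filter; bars are 95% intervals. Nr4a2 lies left of 0 in oculomotor nucleus and right of 0 in spinal cord for genotype, and Slc6a3 lies farthest left for age in oculomotor nucleus; no difference shown was called.

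The age comparison asked how mutants of 10 weeks differ from mutants of 6 weeks. It shares the 10 week mutant arrays with the genotype comparison, and with no 6 week controls, age and disease stage cannot be told apart. None of the 6 probe sets was called in OMN, where 0.0221% of all were, or in spinal cord, where 2.76% were. In OMN 3 of the 6 (Th, Slc6a3 and Aldh1a1) had an unadjusted p under 0.05, against 1197 of all 13575. Slc6a3 was 1468.5, 1729.1 and 2058.4 at 6 weeks and 969.1, 897.5 and 1608.3 at 10 weeks, so that the third array of 10 weeks lay within the younger group's range. Its log2 difference was -0.62 ± 0.17 (adjusted p = 0.224), and without 10 week mutant OMN replicate 3 it was -0.88 and called (adjusted p = 0.043). Th differed by -0.27 ± 0.13 (adjusted p = 0.552) and Aldh1a1 by -0.25 ± 0.11 (adjusted p = 0.535), both with overlapping arrays. Pitx3 was lower on every array of 10 weeks than on every array of 6 weeks in OMN, by -0.19 (adjusted p = 0.846 without the filter), an order that 7.13% of all probe sets showed.

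In mutant spinal cord the 4 probe sets that separated the regions, those of Th, Slc6a3 and En1 and 1450750_a_at of Nr4a2, had every array of 10 weeks above every array of 6 weeks, as had 13.8% of all probe sets. None of these differences was called. The log2 difference of Nr4a2 was 0.47 ± 0.18 (adjusted p = 0.157), that of Th 0.24 ± 0.13 (adjusted p = 0.3) and that of Slc6a3 0.23 ± 0.17 (adjusted p = 0.463). En1 gave 0.58 ± 0.22 without the filter (adjusted p = 0.2) and 0.27 with the offset of 100. In the same comparison 4 of 6 genes of meninges and fibroblasts were called lower at 10 weeks (list median -0.78), and their part in these values was not tested. The age differences of the 2 regions differed by -0.86 ± 0.24 for Slc6a3 (adjusted p = 0.115), by -0.51 ± 0.18 for Th (adjusted p = 0.178) and by -0.47 ± 0.26 for Nr4a2 (adjusted p = 0.371), none called, where 0.368% of all tested probe sets were.

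The 4 genes called in the regional mean were compared with each other over the 9 OMN arrays, which made 6 pairs. Th and Slc6a3 went together, with Pearson's r = 0.824 (exact permutation p = 0.00517, adjusted over the pairs 0.031) and Spearman's rho = 0.867 (exact permutation p = 0.00451, adjusted 0.0271), both two-sided. Without 6 week mutant OMN replicate 3 and 10 week mutant OMN replicate 3, the arrays farthest from the median of Th, r was 0.705 (exact permutation p = 0.0764, adjusted 0.173), so the call rests on those arrays, while the sign of r does not. The rank call was lost with quantile normalization (rho = 0.8, exact permutation adjusted p = 0.083) and with median centring (rho = 0.733, exact permutation adjusted p = 0.187), under both of which r kept its call. After each group's mean was taken off, r of Th and Slc6a3 was 0.859. The same 2 arrays had the highest Th signals, 1756.2 and 1555.3, and Slc6a3 signals of 2058.4 and 1608.3. Th and Nr4a2 gave r = -0.207 and rho = -0.1 (exact permutation adjusted p = 0.712 and 0.81). The other 4 pairs had r between -0.006 and 0.352, with adjusted p of at least 0.531. For Slc6a3 and Nr4a2, r was -0.912 on the 7 arrays without 10 week mutant OMN replicates 1 and 2 (exact permutation p = 0.00556, adjusted 0.0333), so that pair's value also turns on 2 arrays.

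**Figure D4:**
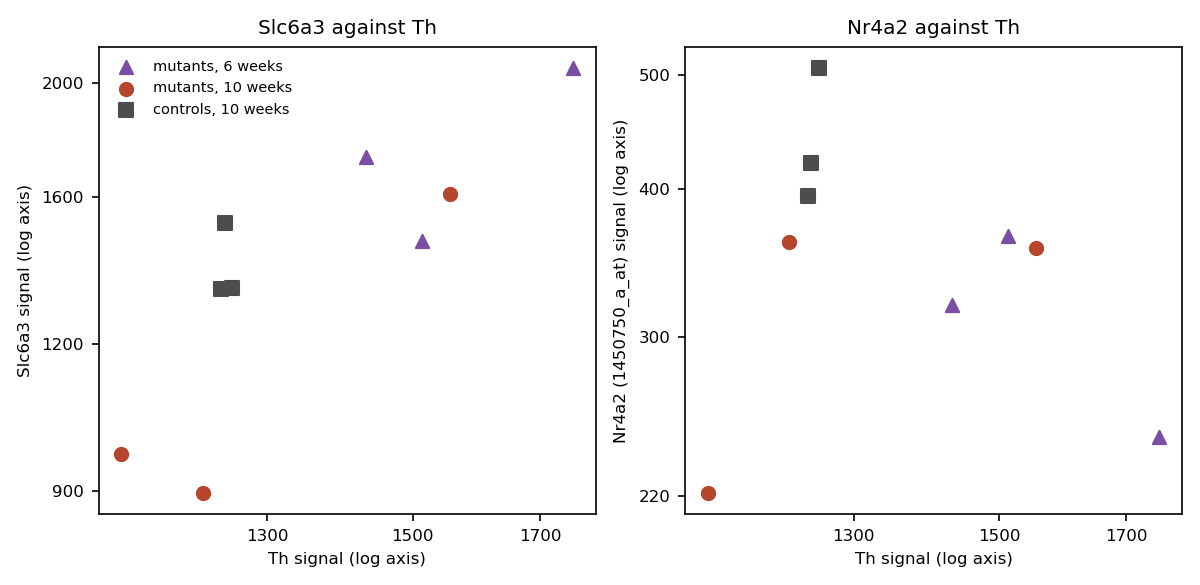
Slc6a3 (left) and Nr4a2, probe set 1450750_a_at (right), against Th on the 9 oculomotor nucleus arrays, all as signals on log axes, with triangles for 6 week mutants, circles for 10 week mutants and squares for 10 week controls. Slc6a3 is higher where Th is higher (r = 0.824), and Nr4a2 shows no such order (r = -0.207).

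The genes whose pattern over the 17 arrays lay closest to each called gene were found among 8072 genes by the mean absolute difference of log2 signals after each gene's mean was taken off. Closest to Th were Ddc (0.274), Slc6a3 (0.29) and Tcf7l2 (0.291). Closest to Slc6a3 were Th (0.29), Ddc (0.367) and Tcf7l2 (0.367). For Nr4a2 they were Doc2b (0.206), Syt13 (0.209) and Syt17 (0.21), and for Drd2 they were Matk (0.121), Fam241b (0.125) and Gpr162 (0.129). The step between regions enters this distance, which thus favours genes with a regional difference of like size. Doc2b, Syt13 and Syt17 had mean regional differences of 1.33, 1.47 and 1.40, against 1.46 for Nr4a2. Matk, Fam241b and Gpr162 had 0.61, 0.68 and 0.56, against 0.63 for Drd2. Shared regulation or a shared cell type was not tested.

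Of the enzymes that make dopamine and its cofactor tetrahydrobiopterin, 7 genes were measured, all 7 passed the filter and 4 were called higher in OMN in the regional mean (20% of all tested probe sets) and none lower (17.7%), with a list median of 1.12 against 0.02 over all. Besides Th these were Ddc, which forms dopamine and also serotonin, with 3351 ± 822 in OMN (SD, n = 9) and 407.6 ± 75.3 in spinal cord (SD, n = 8), a log2 difference of 2.95 ± 0.09 (adjusted p = 1.84e-14). Gch1, the first enzyme of tetrahydrobiopterin synthesis, differed by 1.69 ± 0.10 (adjusted p = 9.68e-11), and Pcbd1, which recycles the cofactor, was called higher at 1.12 ± 0.09. Pts (0.19, adjusted p = 0.108) and Spr (0.11, adjusted p = 0.281), the later synthesis enzymes, were not called. Of 4 measured genes of storage, uptake and breakdown, Slc6a3 was called higher and the mitochondrial aldehyde dehydrogenase Aldh2 lower (-0.27 ± 0.06, adjusted p = 0.00164), while monoamine oxidase A, Maoa, was at 0.09 (adjusted p = 0.258). The vesicular transporter Slc18a2 was not analysed here.

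Of the receptor and signalling genes, 5 were measured and 3 passed the filter. Of these, 2 were called higher in the regional mean (20% of all tested probe sets) and 1 lower (17.7%). Rgs9, a regulator of G protein signalling downstream of Drd2, differed by 0.34 ± 0.08 (adjusted p = 0.00131), and Ppp1r1b (DARPP-32), a phosphatase inhibitor of dopamine-receptive neurons, by -0.39 ± 0.07 (adjusted p = 0.000305). By condition Rgs9 was called in 6 week mutants (0.69, adjusted p = 0.000555). It was not called in 10 week controls (0.32, adjusted p = 0.149) or in 10 week mutants (0.03, adjusted p = 0.906). Among 11 measured transcription factors of midbrain dopamine neurons 5 passed the filter. Of these, 3 were called higher (Nr4a2, Foxa2 and En2) and 1 lower (Ebf3), against the same shares of all tested probe sets. Foxa2, a forkhead factor of the ventral midline, differed by 1.44 ± 0.10 (adjusted p = 2.37e-09), En2 by 1.22 ± 0.12 (adjusted p = 1.97e-07) and Ebf3 by -0.49 ± 0.08 (adjusted p = 6e-05). Without the filter, where 13.1% of all probe sets were called higher, 8 of the 11 were called higher and 1 lower. Otx2, a midbrain factor named after its values were seen, had 123.4 ± 42.3 in OMN (SD, n = 9) and 4.86 ± 2.95 in spinal cord (SD, n = 8), where its mean lay under the offset and no fold is given. None of the 6 tested genes among Ret, its ligands and co-receptors was called in either direction, the nearest being the co-receptor Gfra3 at -0.32 (adjusted p = 0.0958).

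Among 11 other measured genes that are abundant in midbrain dopamine neurons 8 passed the filter, and 7 were called higher and 1 lower (Sncg), where 20% of all tested probe sets were called higher and 17.7% lower. The nicotinic receptor subunit Chrna6 differed by 1.68 ± 0.14 (adjusted p = 1.77e-08), Klhl1 by 1.46 ± 0.21 (adjusted p = 1.83e-05), the growth regulator Dlk1 by 1.26 ± 0.11 (adjusted p = 3.6e-08) and the neurotensin receptor Ntsr1 by 1.07 ± 0.10 (adjusted p = 8.69e-08). Of 4 measured noradrenergic genes only Dbh, which turns dopamine into noradrenaline, passed the filter, and it was not called in the regional mean (0.41 ± 0.16, adjusted p = 0.0576). By condition Dbh was called higher in OMN of 6 week mutants (0.97, adjusted p = 0.0143), and it differed by 0.29 in 10 week mutants and by -0.04 in 10 week controls, neither called (adjusted p = 0.491 and 0.953). The summed signal of that list was 330.3 to 678.4 in OMN and 285.4 to 511 in spinal cord.

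Within OMN, 1 of the 8 tested genes of the last dopamine list was called between genotypes and none of the 7, 4, 3, 5 and 6 tested genes of the other 5 dopamine lists, where 1.47% of all tested probe sets were. Calb1, the calcium-binding protein calbindin of a dorsal class of dopamine neurons and of many other neurons, was lower in 10 week mutants than in 10 week controls, by -0.69 ± 0.13 on the log2 scale (adjusted p = 0.0117), and its difference between 10 and 6 weeks was -0.58 ± 0.13 (adjusted p = 0.112). Ddc differed by 0.50 ± 0.15 between genotypes in OMN (adjusted p = 0.106) and Spr by -0.49 ± 0.13 (adjusted p = 0.0617), neither called. Between ages, Rgs9 was called higher at 10 than at 6 weeks in mutant spinal cord (0.64 ± 0.12, adjusted p = 0.0137), and no other gene of the 6 dopamine lists was called between ages in either region. The summed serotonergic signal in OMN was 1700.8 to 2250.9 in 6 week mutants, 3305.5 to 4045.1 in 10 week mutants and 2305.4 to 2479.2 in 10 week controls. In OMN Slc6a4, the only gene of that list called in these comparisons, was higher in mutants than in controls (0.82 ± 0.17, adjusted p = 0.0212) and higher at 10 than at 6 weeks (1.26 ± 0.17, adjusted p = 0.0118). With a spinal cord mean of 9.76, Slc6a4 passed the filter through its OMN signals alone. Without the filter its genotype difference lost the call (adjusted p = 0.0564), and its age difference kept it (adjusted p = 0.0349). The microglial receptor Cx3cr1 was called higher in 10 week mutant OMN than in control OMN (1.02 ± 0.16, adjusted p = 0.00327), as was the oligodendrocyte gene Cnp (0.52 ± 0.12, adjusted p = 0.0384), both named after their values were seen. Without the filter Cx3cr1 kept its call (adjusted p = 0.0114) and Cnp lost it (adjusted p = 0.104). The other tested microglial genes, Csf1r (0.11), C1qb (0.12), Tyrobp (-0.23) and C1qa (-0.15), were not called between genotypes in OMN. Nor were the other oligodendrocyte genes, Mbp (0.53), Mobp (0.30), Mag (0.15) and Mog (-0.0008). The part of cell composition in the values of Ddc, Slc6a3 and Calb1 was not tested. Pituitary hormone genes summed to up to 23689.1 in 10 week mutant OMN, up to 6513.1 in 10 week control OMN and up to 582.8 in spinal cord. Without the 2 arrays high in them (10 week mutant OMN replicate 2 and control OMN replicate 3), the OMN genotype difference of Slc6a3 was -0.10 and that of Nr4a2 -0.62, against -0.31 and -0.49 with them, none of them called.

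**Figure D5:**
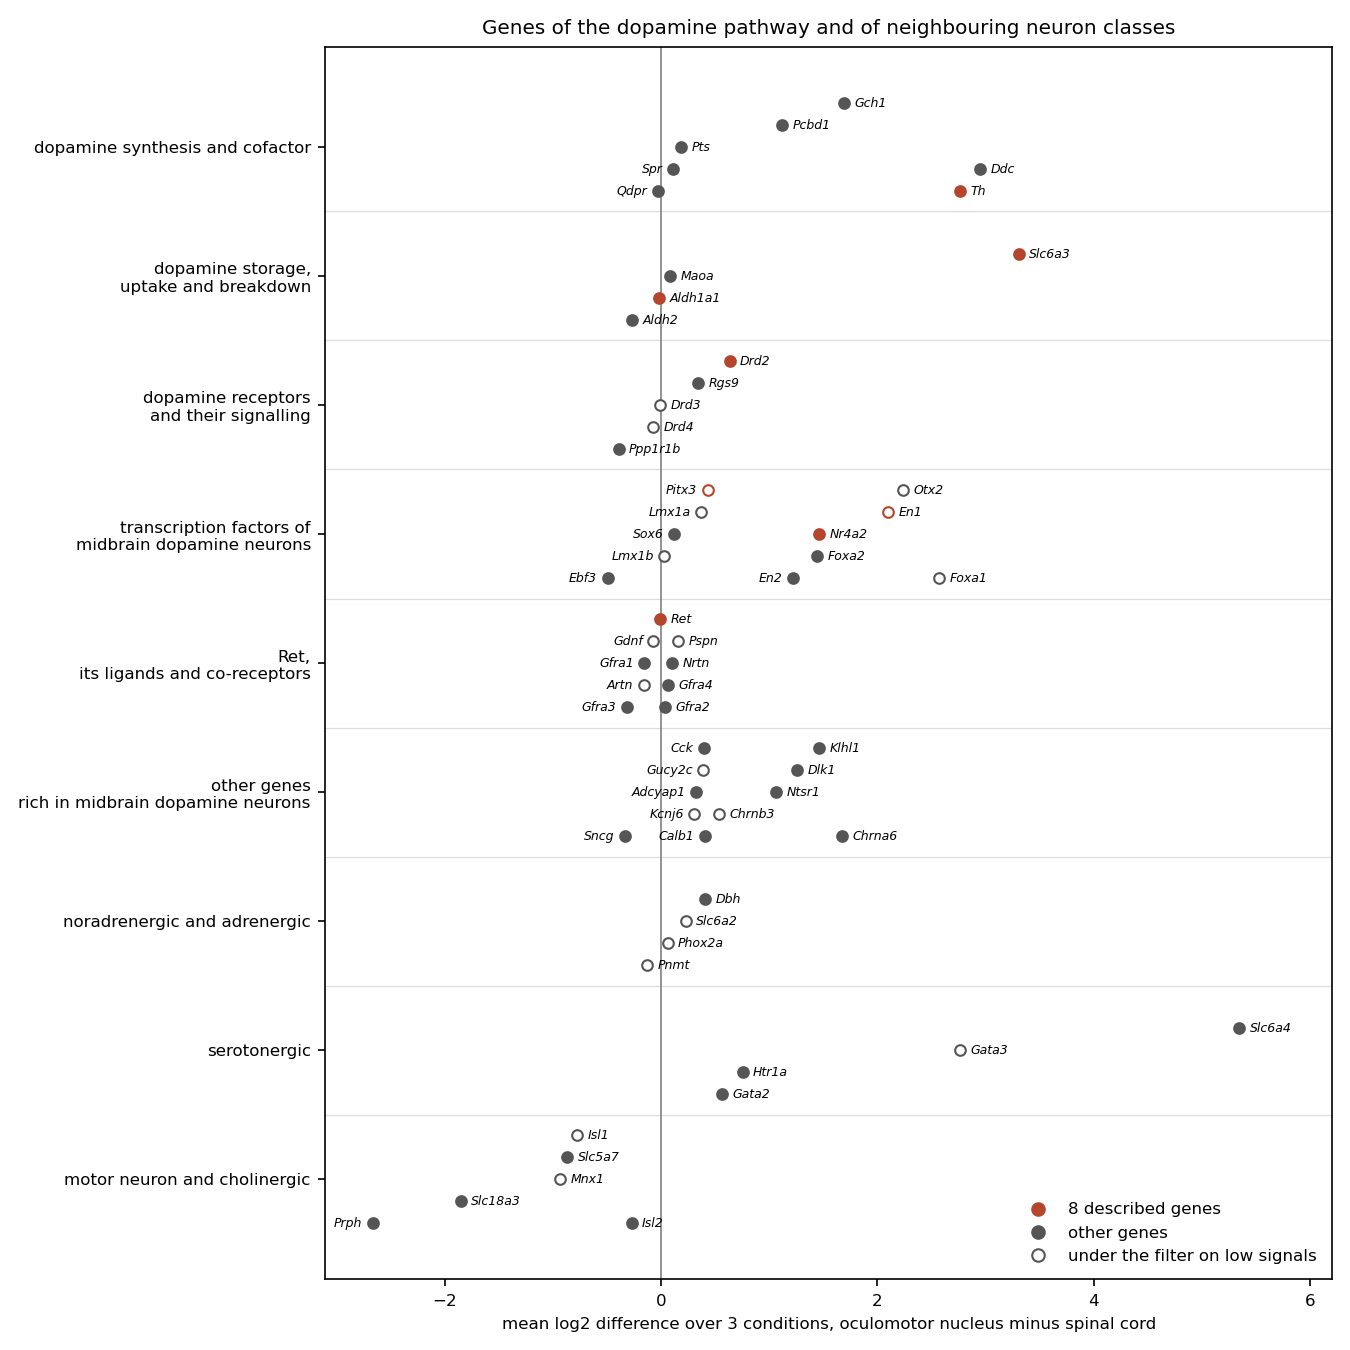
Mean log2 difference over the 3 conditions, oculomotor nucleus minus spinal cord, for the measured genes of 9 lists, with the 8 described genes in red and genes under the filter on low signals as open circles. Th, Ddc, Gch1, Pcbd1 and Slc6a3 lie to the right of 0, the genes of Ret signalling lie around 0, and the motor neuron genes lie to its left; the place of Slc6a4, Gata3, Otx2 and Foxa1 depends on the offset, since their spinal cord means lay below it.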

How the data were processed

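Total RNA of mouse oculomotor nucleus and cervical spinal cord was hybridised to Affymetrix Mouse Expression Set 430A arrays, and the authors computed the deposited intensity values with Affymetrix Microarray Suite 5.0 (MAS5), per the submitters' processing notes and the series' design text. The values are linear and scaled per array, with 2% trimmed means of 500.13 to 500.16 on the 17 arrays used. They hold no probe-level data, so background correction and present calls could not be repeated.

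After removal of 64 control probe sets from 22690, an offset of 25 (5% of the trimmed mean) was added and log2 taken, without normalizing again. A filter on the mean log2 signal (limit 7.38) removed the lowest 40% and kept 13575 probe sets. Group means were fitted with limma 3.58.1 in R 4.3.3 (eBayes with a trend, 11 residual degrees of freedom), with Benjamini-Hochberg adjustment within each contrast. The steps were tested on simulated data. Correlations used exact permutations in scipy 1.17.1. Symbols came from the probe annotation: 20380 probe sets had 1 symbol, 691 several and 1555 none. Promoters came from RefSeq on GRCm38.p6, which 7 of the 8 genes matched, and the files name no build.

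The genes, the gene lists and the tests were chosen with earlier results of these data known. Besides the 8 genes, up to 4 genes of each list with the smallest p in the mean regional difference, up to 2 with the smallest p for genotype or age in OMN, and the 3 nearest patterns are named. Where a list gene had several probe sets, the one of highest mean signal stands for it. The labels do not say whether replicate numbers pair arrays. Deviations from the group means correlated at -0.102 to 0.13 over 40 same-numbered pairs (median 0.0217), with 6 over 0.1. Over 80 differently numbered pairs their median was -0.0194. With 2 or 3 arrays a group, these values cannot tell whether same-numbered arrays shared an animal or a day. The alternatives were quantile normalization, median centring, an offset of 100, a filter of 60% or none, a fit restricted to each contrast's own arrays, eBayes without a trend, 1 probe set per gene, the replicate number as a block, all 18 arrays, leaving out 2 arrays with high pituitary signals and leaving out each array.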

Additional observations from a re-analysis of the deposited data

Results flagged for a closer look

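Nr4a2 on probe set 1450750_a_at had genotype differences of opposite sign in the 2 regions at 10 weeks: every mutant array was below every control array in OMN, and every mutant array was above both control arrays in spinal cord. The difference of the log2 differences was -0.931 (95% interval -1.50 to -0.36, adjusted p = 0.668 in limma), so it was not called.

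Control spinal cord replicate 1, which was left out of all comparisons, had 6 of the 9 probe sets above both other control spinal cord arrays. No share over all probe sets stands beside this count, which describes the array and not these genes. The array had 427.6 for Th against 170.8 and 166.4 on the others, 632.9 for Slc6a3 against 107.5 and 102.2, and 1125.9 for Pitx3 against 75.9 and 72.8. Aldh1a1 was at 145.1 there, against 3167.4 and 2785 on the others. Over all probe sets this array correlated with the 17 others at 0.0104 to 0.0143, and its values cannot be tied to the genes of their probe sets.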

How the results depend on the processing

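Of 276 alternative values for the 15 called regional values, run without control spinal cord replicate 1, 3 lost their call, all of Drd2 in 10 week controls and each without 1 array (0.63, 0.64 and 0.45). With all 18 arrays, 2 probe sets were called in 6 week mutants, 2 in 10 week controls and 2 in the mean, and Drd2 in 10 week controls turned to -0.184 (adjusted p = 0.772). That array's signals did not follow its probe sets. Without the filter, 7 of 9 probe sets were called in the mean, since 3 more were tested. With each array left out, the count in OMN of 10 against 6 week mutants ran from 0 to 1, the call being Slc6a3 without 10 week mutant OMN replicate 3. The difference of En1 depended on the offset (1.34 against 2.10), because its spinal cord signals lie near it. For 1450749_a_at of Nr4a2 in 10 week mutants, the regional difference was 0.12 without spinal cord replicate 3, against 0.51. The replicate block moved no count: 4, 4, 3 and 4 probe sets were called in the regional comparisons (6 week mutants, 10 week controls, 10 week mutants and mean) and 0 in the others. Since the labels do not say whether the numbers pair arrays, this block is no test of pairing. A filter of 60% removed Nr4a2 and gave 3, 3, 2 and 3. Groups of 2 or 3 arrays limit what could be called between genotypes and ages, and low signals limit En1, Pitx3 and 1450749_a_at.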
